A study of Homo sapiens with 24 samples.

Results

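The genes described here were the 4 class IIa histone deacetylases (HDAC4, HDAC5, HDAC7 and HDAC9), 3 of the MEF2 transcription factors they bind (MEF2A, MEF2C and MEF2D), serum response factor (SRF) and its coactivators MRTFA and MRTFB, the myocardin-related factors. They were taken by symbol from a named list, 10 of the 29794 genes in the count tables, because HDAC4 and SRF are familiar targets of the muscle miRNAs miR-1 and miR-133a. All 10 passed the filter on low counts in both batches and were tested. The question was how their RNA levels stood when each of 7 miRNAs was expressed, against cells with the empty vector of the same batch.

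RNA-seq libraries were made from Flp-In T-REx 293 cells, a line derived from human embryonic kidney 293 cells. All 9 groups were transduced with a lentiviral GFP vector, selected in 1 mg/mL geneticin for 6 days and treated with 1 µg/mL doxycycline for 7 days, so the controls carried the vector and received both drugs too. The vectors differed in the intron of the GFP cassette, which held an artificial hairpin with the mature miRNA or, in the empty vector, no hairpin. Batch 1 comprised miR-1, miR-122 and empty vector cells with 2 libraries a group. Batch 2 comprised miR-155, miR-133a, miR-373, miR-372 and miR-302a cells and an empty vector of its own, with 3 libraries a group. Each replicate came from its own transduction and culture. Expression was driven by a cytomegalovirus promoter in a line that is neither muscle nor liver, and only polyadenylated RNA was sequenced.

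The libraries held 20153452 to 21595191 exon counts in batch 1 and 13047400 to 35040778 in batch 2. CPM is the count scaled by TMM to a library of one common size. For the ranges and sums of cell type markers it was scaled by the total count alone. Of the markers of the line, VIM was read at 917 to 1290 CPM and INA at 56.9 to 81.1 CPM in the 24 libraries. PAX2 was at 5.17 to 13.9 CPM and NEFM at 1.25 to 4.41 CPM, and NEFL was not found in the counts. The muscle factor MYF5 had 0 reads in all 24, and MYOG, MYF6 and MYL1 had at most 1. Of the other muscle markers, TNNT3 had at most 2, CKM 8, MYOD1 19, ACTA1 32 and DES 36. MYH3 had 66 to 245 reads and TNNT1 had 282 to 1241 (15.6 to 37.4 CPM). The liver genes ALB and APOA1 had at most 7, and APOB, TTR and SERPINA1 at most 2. Libraries of batch 2 differed in how far long genes were read below short ones. The slope of log2 CPM on log2 exon length, relative to the batch, was 0.038 to 0.081 in the empty vector libraries and lowest in miR-155 replicate 2 (-0.101) and miR-372 replicate 2 (-0.099). A fit with this slope as a covariate is given where it changed a call. Most miRNA libraries were below the empty vector libraries in slope, so this covariate and the contrast with the empty vector cannot be fully told apart.

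Class IIa histone deacetylases have little enzyme activity of their own and act mainly as signal-dependent corepressors: in the nucleus they bind MEF2 factors and hold their target genes down, and phosphorylation by CaMK, PKD or salt-inducible kinases sends them to the cytoplasm. SRF binds CArG boxes and works with partners of different kinds, the ternary complex factors at immediate-early genes and the MRTFs at cytoskeletal genes. MRTFs are held by monomeric actin and move to SRF when RhoA signalling polymerises actin. In muscle, MEF2 and SRF drive transcription of the miR-1 and miR-133a clusters.

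A miRNA guides Argonaute to 3′UTRs mainly through its seed, bases 2 to 8. The 7 mature sequences, from RefSeq (GRCh38.p14), are shown with the seed in capitals because the 10 genes are compared by their matches to it.
miR-1: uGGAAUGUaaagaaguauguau
miR-122: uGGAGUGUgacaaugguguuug
miR-133a: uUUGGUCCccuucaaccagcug
miR-155: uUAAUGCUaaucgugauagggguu
miR-302a: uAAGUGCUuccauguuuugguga
miR-372: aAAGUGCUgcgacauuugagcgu
miR-373: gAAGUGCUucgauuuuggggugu
The last 3 had the same seed and are called the same-seed miRNAs. Those of miR-1 and miR-122 differed by 1 substitution, A5G, counted from the 5′ end of the miRNA and written from miR-1 to miR-122.

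HDAC4 lies at chr2:239969864-240323348 on the minus strand of GRCh37, HDAC9 at chr7:18126572-19042039 (plus), MEF2A at chr15:100105622-100256693 (plus), MEF2C at chr5:88012934-88200074 (minus) and SRF at chr6:43139007-43149244 (plus). The longest annotated 3′UTR of each gene (GENCODE on GRCh37) was searched on the transcript strand for 8mer matches (bases 2 to 8 and an A), 7mer-m8 matches (bases 2 to 8) and 7mer-A1 matches (bases 2 to 7 and an A). The letters of the 7mer-m8 match were ACATTCC for miR-1, ACACTCC for miR-122, GGACCAA for miR-133a, AGCATTA for miR-155 and AGCACTT for the same-seed group. Matches in genes that were called lower with that miRNA are printed, and that of SRF for miR-133a because SRF is its best known target here, with the match in capitals.
HDAC4 for miR-1, 7mer-A1 (chr2:239972453-239972459, minus strand): gccaccagtttCATTCCAaagtgtatattg
HDAC4 for miR-1, 7mer-m8 (chr2:239971273-239971279, minus strand): ttttgatcagaACATTCCttctttactggt
HDAC4 for miR-1, 7mer-A1 (chr2:239971240-239971246, minus strand): agccacgtgctCATTCCAttcttctttttg
SRF for miR-122, 7mer-A1 (chr6:43147073-43147079, plus strand): ctgagccctctCACTCCAgccaaagaaatg
SRF for miR-122, 7mer-A1 (chr6:43148819-43148825, plus strand): tgctcttgtttCACTCCAccatcactcact
SRF for miR-133a, 7mer-A1 (chr6:43147987-43147993, plus strand): gggaagagggaGACCAAAtgtcggggttgg
MEF2A for miR-155, 8mer (chr15:100253676-100253683, plus strand): tagaaatatagAGCATTAAcaaagtaaaat
MEF2A for the same-seed group, 7mer-A1 (chr15:100253161-100253167, plus strand): cacagaatcagGCACTTAcctgcaaactcc
MEF2C for the same-seed group, 7mer-m8 (chr5:88018215-88018221, minus strand): gagataagcttAGCACTTgagttgtacaac
HDAC9 for the same-seed group, 7mer-A1 (chr7:19038067-19038073, plus strand): cccaattggttGCACTTAgagtctttaaaa
HDAC9 for the same-seed group, 7mer-m8 (chr7:19038249-19038255, plus strand): tgaaatagaccAGCACTTtttgaaagggta
HDAC4 held matches to all 5 seeds in a 3′UTR of 4929 bases, and HDAC7, with 1119 bases, held none. A miR-1 match was held by 3 of the 10 genes and by 24.1% of all genes tested with an annotated 3′UTR. The numbers were 6 and 25.7% with miR-122, 3 and 17.2% with miR-133a, 3 and 19.2% with miR-155, and 5 and 30.1% with the same-seed group.

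Levels are compared between genes only as CPM per kilobase of exon. In the empty vector cells SRF was the highest, with 24.7 ± 0.508 (SD, n = 2) CPM per kilobase in batch 1 and 23.9 ± 3.00 (n = 3) in batch 2. MEF2A, HDAC5 and HDAC7 came next, and HDAC4 (1.62 ± 0.137 and 1.26 ± 0.271) and HDAC9 (0.52 ± 0.0283 and 0.503 ± 0.0858) were the lowest. The order of all 10 was the same in both batches, but in batch 2 the libraries of MEF2A overlapped those of HDAC5, those of HDAC5 overlapped HDAC7, and those of MEF2D overlapped MEF2C. HDAC9, the scarcest, was read with 41 to 166 counts per library in batch 2, while SRF was read with at least 1164. An exon of MRTFA overlapped the pseudogene RPL4P6 on its strand and an exon of MRTFB overlapped TVP23CP2, so reads there could not be told apart.

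**Figure D1:**
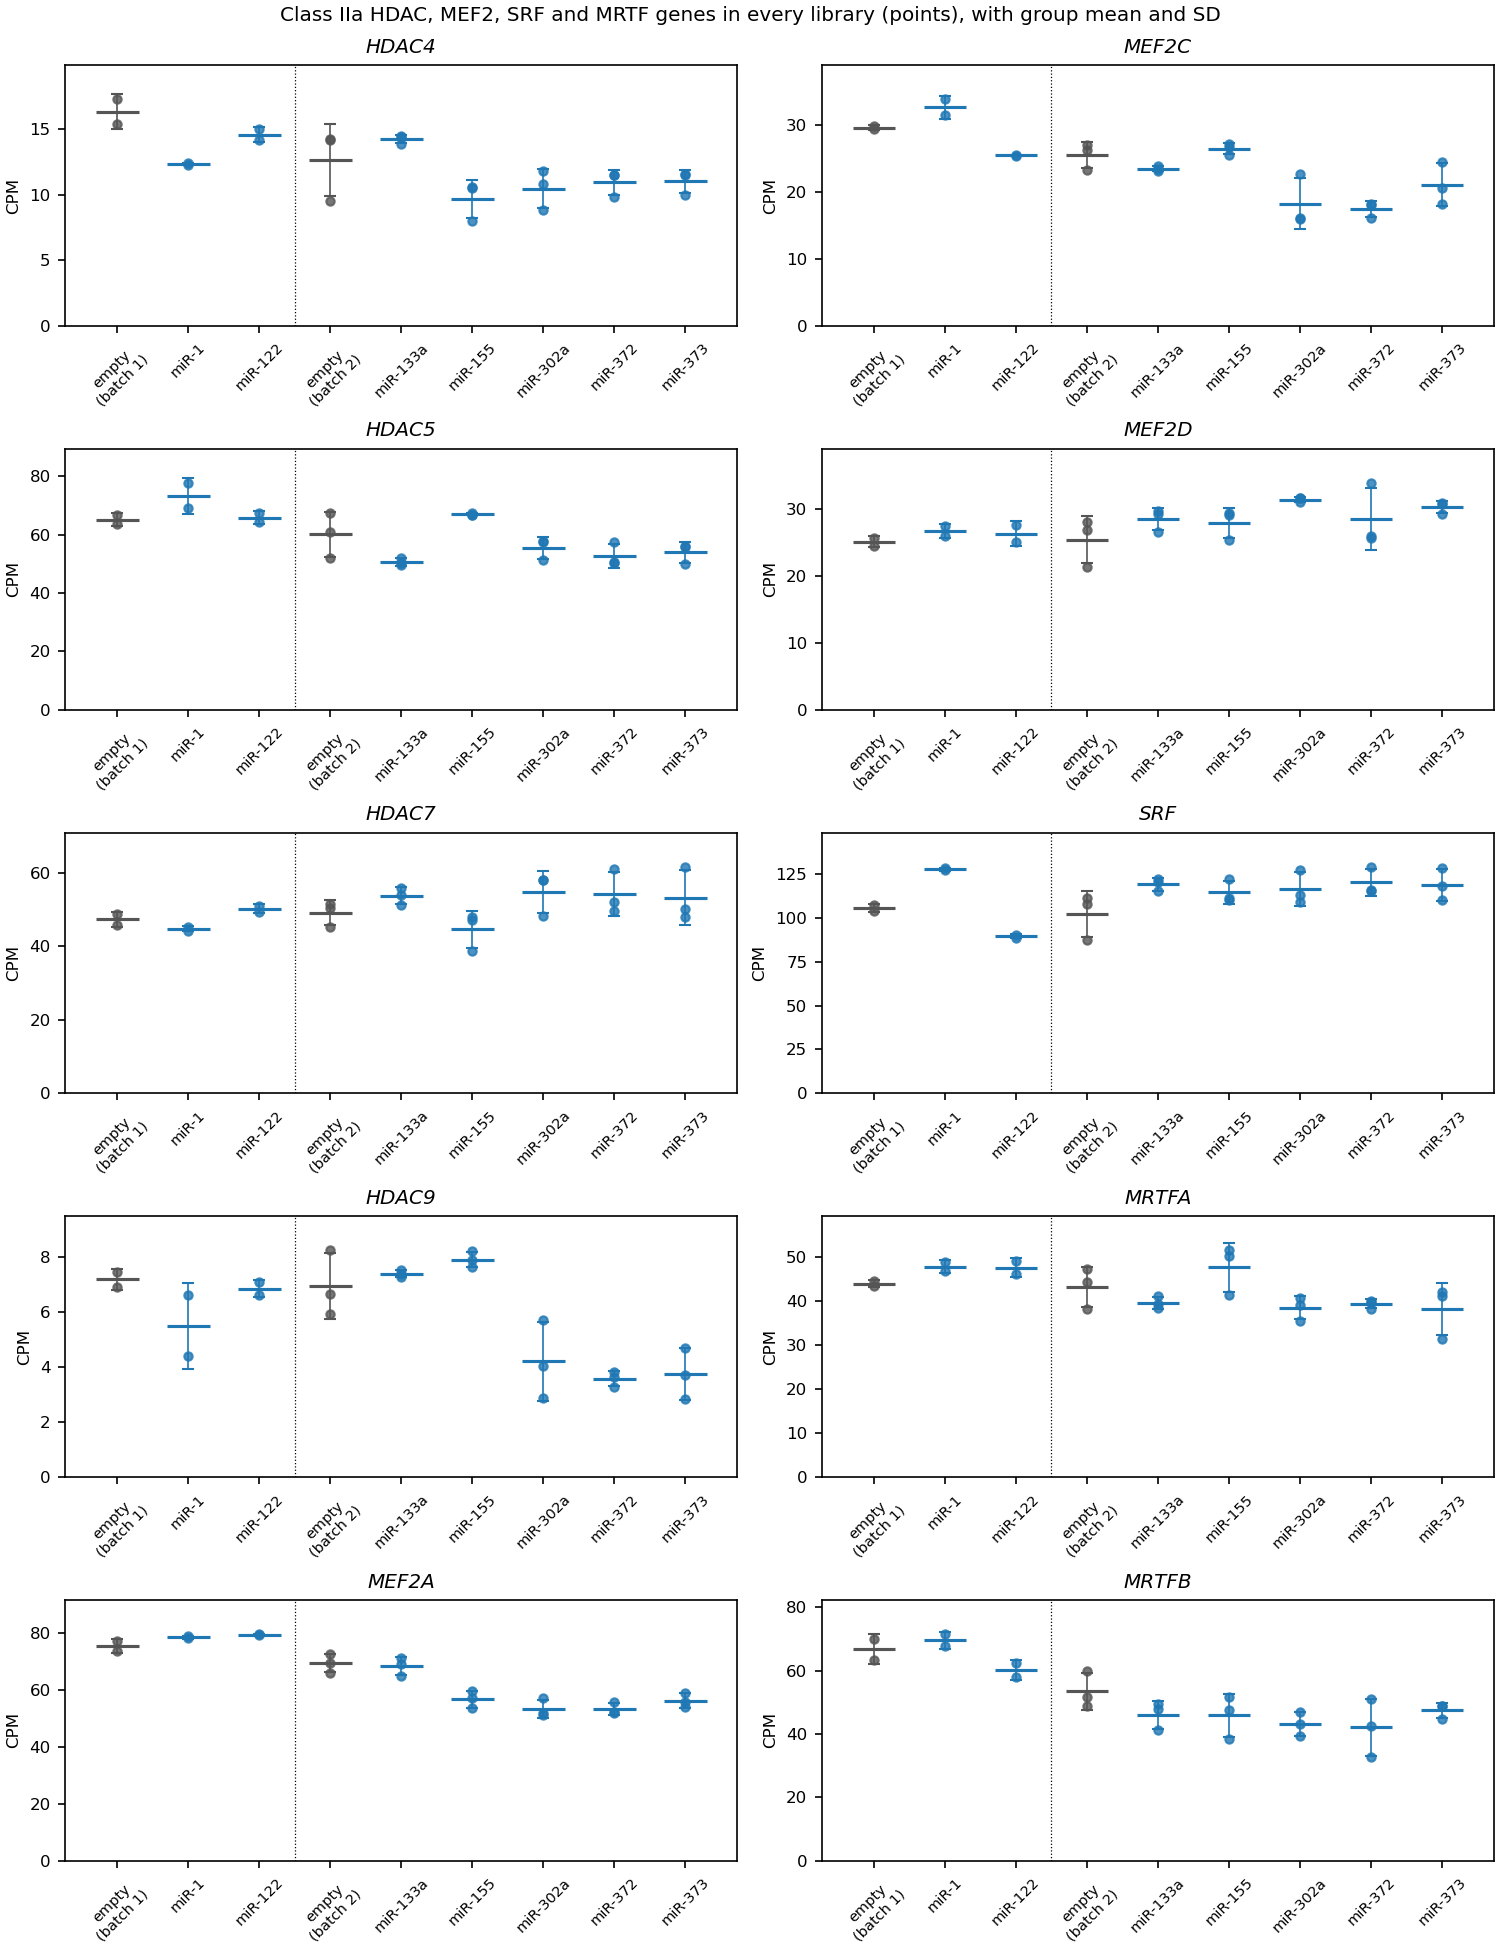
Level of each gene in CPM (vertical axis, from 0) in every library of the 9 groups, with points for libraries, a line for the group mean and bars of 1 SD. SRF was above its control in both miR-1 libraries and below it in both miR-122 libraries, and HDAC9, MEF2A and MEF2C had their lowest libraries among the same-seed miRNAs.

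In miR-1 cells, HDAC4 fell and SRF rose. HDAC4 was read at 12.3 and 12.4 CPM in the miR-1 libraries and at 17.3 and 15.4 CPM with the empty vector, so the groups did not overlap. With 2 libraries a group this was common. Of the 10 genes, 3 lay below and 6 above both controls with miR-1, and 4 below and 3 above with miR-122. The share over all genes is not given. The log2 fold change was -0.40 (SE 0.0937, 95% interval -0.60 to -0.21, edgeR adjusted p 0.0038), a change of -24.4%. SRF was read at 127 and 128 CPM against 104 and 107 CPM. Its log2 fold change was 0.27 (SE 0.0432), with an edgeR adjusted p of 0.00012. HDAC4 carried 3 miR-1 matches in its 3′UTR and SRF none. Both calls held in each of 12 other fits.

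HDAC5 also rose with miR-1, from 63.5 and 66.7 CPM to 77.7 and 69.0 CPM (log2 fold change 0.17, SE 0.0577, edgeR adjusted p 0.035). This call was lost without miR-1 replicate 1 (0.09), without empty vector replicate 1 of batch 1 (0.14) and with DESeq2 (adjusted p 0.13). It was also lost with the replicate block (edgeR adjusted p 0.053) and in a fit of only these groups (edgeR adjusted p 0.052). HDAC9 had 4.39 and 6.61 CPM against 6.91 and 7.47 CPM, and its log2 fold change of -0.39 (SE 0.157; edgeR gave an adjusted p of 0.075) passed only in 5 of 12 other fits, among them without miR-1 replicate 2 (-0.70, adjusted p 0.0087) and without empty vector replicate 1 of batch 1 (adjusted p 0.05 after rounding). HDAC7, which was below its controls in both libraries, did not pass (-0.08).

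None of the 3 MEF2 genes passed with miR-1: the log2 fold changes were 0.05 for MEF2A, 0.14 for MEF2C and 0.09 for MEF2D. MRTFA (0.12) and MRTFB (0.06) did not pass either, although both held a 7mer-m8 match to miR-1. The 3 of 10 genes called compare with 24.5% of the 14348 genes tested in this comparison, 13.7% lower and 10.8% higher, and the median log2 fold change of the 10 was 0.08 against 0 over all genes.

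In miR-122 cells SRF fell. It was read at 90.2 and 88.6 CPM, below both control libraries (104 and 107 CPM), with a log2 fold change of -0.24 (SE 0.0446, 95% interval -0.33 to -0.14, edgeR adjusted p 0.0020). Its 3′UTR held 2 7mer-A1 matches to miR-122. Without miR-122 replicate 2 the call was lost (-0.22, edgeR adjusted p 0.058).

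MEF2C had 25.4 and 25.5 CPM against 29.8 and 29.3 CPM, with no overlap, and did not pass (-0.22, SE 0.0678, edgeR adjusted p 0.067). It was called with the likelihood ratio test (adjusted p 0.039) and with a crossed replicate block (edgeR adjusted p 0.029). MEF2C held no miR-122 match in the 3′UTR. None of the other 8 genes passed, with log2 fold changes from -0.16 for HDAC4 and -0.15 for MRTFB to 0.12 for MRTFA. The crossed replicate block also called MRTFB (edgeR adjusted p 0.041). Without empty vector replicate 2 of batch 1, MRTFB passed (-0.22, edgeR adjusted p 0.011). With 1 of 10 called, the background was 5.92% of genes, 4.06% lower and 1.86% higher.

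Compared directly, miR-1 and miR-122 cells differed in SRF by 0.51 on the log2 scale (SE 0.0439, edgeR adjusted p 3.5e-08), or 42.5% more SRF RNA with miR-1. MEF2C, read at 33.8 and 31.4 CPM with miR-1, was also higher than with miR-122 (0.36, SE 0.0667, edgeR adjusted p 0.00042). Both held when any 1 library was left out. MRTFB (0.21) and HDAC5 (0.16) were higher with miR-1 and HDAC7 (-0.17) lower, making 5 of 10 against 31.2% of all genes. For HDAC4 the direct difference was -0.24 (SE 0.0958, edgeR adjusted p 0.062), which did not pass. It was called with the likelihood ratio test, in a fit of only these groups and with a crossed replicate block, and over all alternatives its adjusted p ranged from 0.038 to 0.27. The calls of HDAC5, HDAC7 and MRTFB did not hold when single libraries were left out: HDAC7 was lost without any 1 of the 4 (adjusted p 0.069 to 0.2), HDAC5 without miR-1 replicate 1 (adjusted p 0.53), miR-122 replicate 1 (0.091) or miR-122 replicate 2 (0.26), and MRTFB without miR-1 replicate 2 (adjusted p 0.1) or miR-122 replicate 1 (0.14). HDAC9 was called in this comparison without miR-1 replicate 2 (-0.64, edgeR adjusted p 0.013).

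With miR-133a, the muscle miRNA for which SRF is a textbook target, none of the 10 genes was called (edgeR; the background was 5.34% of 14054 genes tested, 3.97% lower and 1.37% higher). SRF was read at 115.3, 120.4 and 121.8 CPM in the miR-133a libraries and at 87.3, 111 and 108 CPM with the empty vector. All 3 miR-133a libraries were above all 3 controls, and the log2 fold change was 0.22 (SE 0.0909, 95% interval 0.03 to 0.41, edgeR adjusted p 0.17), although the SRF 3′UTR held a 7mer-A1 match. These higher values were not particular to miR-133a. Against the same controls SRF was at 0.16 with miR-155, 0.19 with miR-302a, 0.24 with miR-372 and 0.22 with miR-373. The direct log2 differences of miR-133a to these were 0.063, 0.031, -0.013 and 0.004, none called. HDAC4, with 14.5, 14.4 and 13.9 CPM against 9.53, 14.2 and 14.3 CPM, overlapped its controls (0.17, SE 0.151, interval -0.15 to 0.48).

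HDAC5 was read at 49.7, 50.2 and 52.1 CPM with miR-133a. The controls had 52.1, 67.5 and 60.8 CPM, and the log2 fold change was -0.25 (SE 0.0898, edgeR adjusted p 0.12). Without empty vector replicate 1 of batch 2, the lowest control, the value was -0.34 (edgeR adjusted p 0.04), and a fit of only these groups also called it (edgeR adjusted p 0.048). At an unadjusted p under 0.05 there were 2 genes, HDAC5 and SRF, and DESeq2 called 0. The other 7 had log2 fold changes between -0.21 for MRTFB and 0.17 for MEF2D.

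The effects of the muscle miRNAs miR-1 and miR-133a, each against its own controls, were compared in a joint fit of both batches, which called 0 of the 10 genes (3.24% of 14383 genes). The differences furthest from 0 were -0.56 for HDAC4 (SE 0.209, edgeR adjusted p 0.17), -0.47 for HDAC9 (SE 0.298, edgeR adjusted p 0.5) and 0.43 for HDAC5 (SE 0.130, edgeR adjusted p 0.077). HDAC4 and HDAC5 were the 2 genes with an unadjusted p under 0.05, and DESeq2 called 1, HDAC5. Without empty vector replicate 1 of batch 2, HDAC5 was called in that fit too. For SRF, which was higher than its controls in every library of both miRNAs, the difference was 0.06 (SE 0.129, 95% interval -0.21 to 0.33). In batch 2 its values with the other miRNAs were close to those with miR-133a.

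With miR-155, a miRNA best known from activated immune cells, MEF2A fell. It had 57.1, 53.6 and 59.5 CPM against 66.1, 72.7 and 69.6 CPM, so the groups did not overlap, and the log2 fold change was -0.29 (SE 0.0729, edgeR adjusted p 0.018). The 8mer match printed above lies in its 3′UTR. The length slope was lowest in miR-155 replicate 2, and with the slope as a covariate the value was -0.19 (edgeR adjusted p 0.14). The call was also lost without that library (-0.25, adjusted p 0.1), without miR-155 replicate 1 (adjusted p 0.054) and without empty vector replicate 2 (adjusted p 0.11) or 3 (adjusted p 0.065) of batch 2.

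HDAC4, which also held an 8mer match to miR-155 and a 7mer-m8 match, had 10.5, 8.03 and 10.6 CPM against 9.53, 14.2 and 14.3 CPM. The groups overlapped through empty vector replicate 1, and its value of -0.39 (SE 0.155, edgeR adjusted p 0.13) passed only when that library was left out (-0.55, adjusted p 0.033). HDAC9, the third gene with a match, was at 0.19 (SE 0.198). The call of 1 of 10 compares with 7.63% of all genes (4.81% lower, 2.82% higher), and the remaining genes lay between -0.22 for MRTFB and 0.16 for SRF.

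With the same-seed miRNAs, which are abundant in embryonic stem cells, HDAC9, MEF2A and MEF2C fell. HDAC9 was read at 6.68, 5.93 and 8.25 CPM with the empty vector. It was at 2.88, 4.03 and 5.72 CPM with miR-302a, at 3.63, 3.29 and 3.84 CPM with miR-372 and at 3.70, 2.83 and 4.70 CPM with miR-373. All 9 libraries were below all 3 controls. The log2 fold changes were -0.73 (SE 0.209), -0.94 (SE 0.209) and -0.86 (SE 0.205), with edgeR adjusted p of 0.037, 0.0064 and 0.018, so HDAC9 RNA fell by 39.7%, 47.9% and 44.8%.

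MEF2A had 51.8, 57.0 and 51.2 CPM with miR-302a, 52.3, 51.8 and 55.8 CPM with miR-372 and 55.6, 59.0 and 54.0 CPM with miR-373. These were below the controls at 66.1, 72.7 and 69.6 CPM in every case. The log2 fold changes were -0.38 (edgeR adjusted p 0.0028), -0.38 (0.0021) and -0.31 (0.016). MEF2A had the smallest SE of the 3 genes, 0.0724 to 0.0730.

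MEF2C was at 16.1, 22.6 and 16 CPM with miR-302a and at 16.1, 18.1 and 18.2 CPM with miR-372, below its controls at 26.2, 27.0 and 23.3 CPM. It fell by 0.47 on the log2 scale with the former (edgeR adjusted p 0.026) and by 0.55 with the latter (edgeR adjusted p 0.0085), each with an SE of 0.127. With miR-373 it was at 20.5, 24.5 and 18.2 CPM, which overlapped the controls, and the value of -0.29 (95% interval -0.55 to -0.02, edgeR adjusted p 0.23) did not pass.

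**Figure D2:**
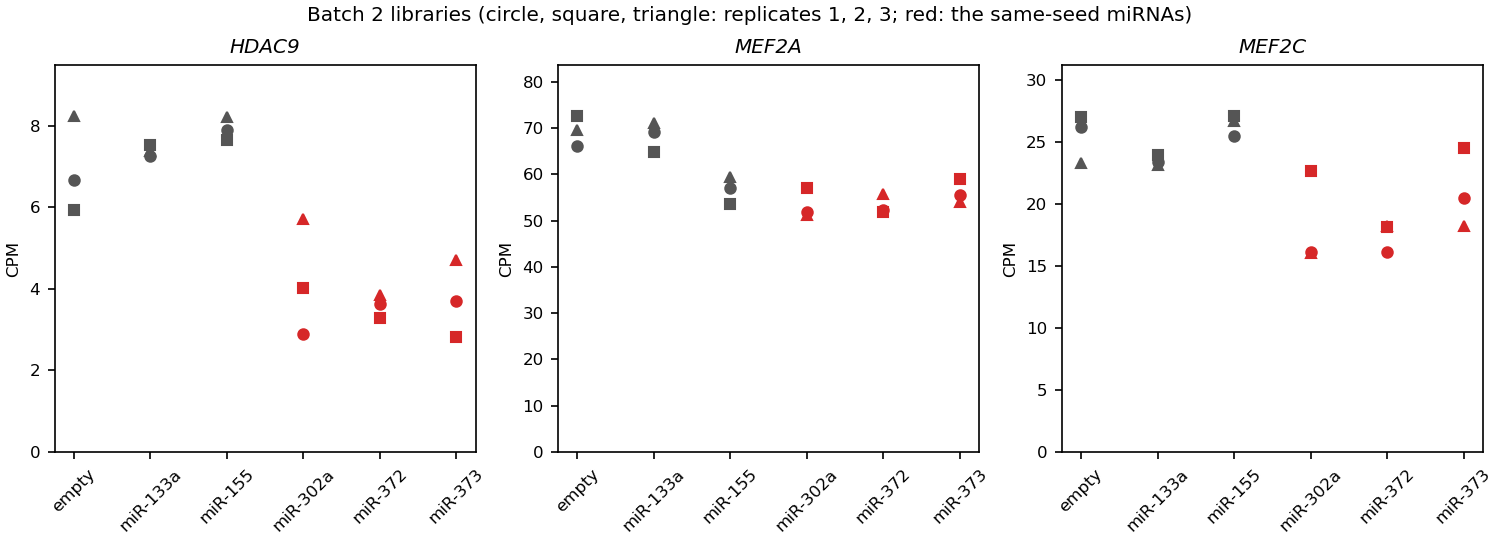
HDAC9, MEF2A and MEF2C in CPM (vertical axes, from 0) in the 18 libraries of batch 2, with a symbol for each replicate number and red for the same-seed miRNAs. For HDAC9 and MEF2A all 9 red points lie below the 3 empty vector points, and for MEF2C miR-373 replicate 2 (24.5 CPM) lies above empty vector replicate 3 (23.3 CPM).

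With miR-302a 3 of 10 were called, against 7.88% of all genes (4.85% lower, 3.02% higher). The counts were 3 with miR-372, against 11.4% (6.56% lower, 4.82% higher), and 2 with miR-373, against 5.13% (3.3% lower, 1.83% higher). In the average of the same-seed groups 3 were called, against 15.4% (9.11% lower, 6.28% higher): HDAC9 at -0.84 (SE 0.164), MEF2A at -0.36 (SE 0.0583) and MEF2C at -0.44 (SE 0.101). The calls of MEF2A with miR-302a and miR-372 and of HDAC9 with miR-372 held in 14 other fits. For miR-302a, HDAC9 was lost without miR-302a replicate 1 (edgeR adjusted p 0.19) or 2 (0.062) and without empty vector replicate 1 (0.078) or 3 (0.16), and MEF2C without miR-302a replicate 1 (0.16) or 3 (0.14) and without empty vector replicate 1 (0.084) or 2 (0.12). For miR-373, HDAC9 was lost without miR-373 replicate 1 (0.059) or 2 (0.075) and without empty vector replicate 1 (0.051) or 3 (0.1), and MEF2A without miR-373 replicate 1 (0.064) or 3 (0.096) and without empty vector replicate 2 (0.091) or 3 (0.058). MEF2C with miR-372 was lost only without miR-372 replicate 1 (edgeR adjusted p 0.05 after rounding).

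HDAC9, the longest of the 10 genes at 13.8 kilobases of exon, had log2 fold changes of -0.74, -0.94 and -0.85 with the length slope as a covariate, close to the values without it, although for miR-302a the call was lost (edgeR adjusted p 0.068). MEF2A was at -0.29, -0.28 and -0.26 in that fit and remained called for each miRNA, and MEF2C was at -0.40 for miR-302a (edgeR adjusted p 0.085) and -0.47 for miR-372 (edgeR adjusted p 0.041). MEF2D, the MEF2 gene with no same-seed match in its 3′UTR, was above its controls in all libraries of miR-302a (31.0, 31.6 and 31.6 CPM against 21.4, 28.0 and 26.8 CPM) and of miR-373. Its log2 fold changes of 0.30, 0.18 and 0.25 did not pass, but with the length slope as a covariate they were 0.47, 0.34 and 0.34 and each passed (edgeR adjusted p 0.0069, 0.037 and 0.025). That slope was itself higher in the empty vector than in most miRNA libraries.

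SRF was not called with any same-seed miRNA (0.19, 0.24 and 0.22), nor were HDAC4 (-0.28, -0.21 and -0.20) and MRTFB (-0.31, -0.34 and -0.17), which both held 7mer-m8 matches to the shared seed. With the replicate block, SRF was called higher for miR-372 (0.24, edgeR adjusted p 0.036). MRTFB was called for miR-372 without miR-372 replicate 3 (-0.50, edgeR adjusted p 0.021) and without a filter (-0.34, edgeR adjusted p 0.04).

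The same-seed miRNAs were not distinguishable from each other in these genes: edgeR called 0 of 10 in each of the 3 direct comparisons (background 0%), 0 had an unadjusted p under 0.05, and DESeq2 called 0. The intervals were wide for HDAC9, from -0.25 to 0.67 on the log2 scale between miR-302a and miR-372. They were narrower for MEF2A, from -0.15 to 0.15. For MEF2C the difference between miR-372 and miR-373 was -0.26 (SE 0.126, 95% interval -0.53 to 0.00).

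Since the controls of batch 2 are shared by its 5 miRNAs, the miRNAs were also compared with each other. HDAC9 was higher with miR-133a (7.27, 7.52 and 7.39 CPM) and with miR-155 (7.89, 7.65 and 8.21 CPM) than with each same-seed miRNA. Its log2 differences ran from 0.82 (SE 0.208, edgeR adjusted p 0.012) for miR-133a against miR-302a to 1.13 (SE 0.207, edgeR adjusted p 0.00070) for miR-155 against miR-372. Of these 6 calls of HDAC9, 5 held when any 1 library was left out, and miR-133a against miR-302a was lost without miR-302a replicate 1 (0.61, adjusted p 0.081).

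MEF2C was higher with miR-155 than with miR-302a (0.53, SE 0.127, edgeR adjusted p 0.0070) and miR-372 (0.60, SE 0.126, edgeR adjusted p 0.0024), and both held without any 1 library. It was higher with miR-133a than with miR-372 too (0.43, edgeR adjusted p 0.03), which was lost in 5 of 6 fits that left out 1 library (adjusted p 0.057 to 0.13, all but the fit without miR-372 replicate 2). MEF2A was higher with miR-133a than with miR-373 (0.28), miR-372 (0.36) and miR-302a (0.36), and did not pass between miR-155 and any of them. The miR-373 call was lost without miR-133a replicate 3 (adjusted p 0.07) or miR-373 replicate 3 (adjusted p 0.074).

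HDAC5 was higher with miR-155 than with each of the other 4 miRNAs. It was read at 67.3, 66.8 and 66.7 CPM with miR-155, above every library of miR-133a, and the log2 difference of miR-133a to miR-155 was -0.40 (SE 0.0896, edgeR adjusted p 0.0040), which held without any 1 library. It was higher by 0.34 than with miR-372, by 0.31 than with miR-373 and by 0.27 than with miR-302a (edgeR adjusted p 0.01, 0.02 and 0.042). These were lost for miR-302a in 5 of 6 fits without 1 library (adjusted p 0.066 to 0.18, all but the fit without miR-302a replicate 2), for miR-372 without miR-372 replicate 1 (adjusted p 0.056), and for miR-373 without miR-373 replicate 1 (adjusted p 0.086) or miR-155 replicate 1 (adjusted p 0.05 after rounding). HDAC4 was higher with miR-133a than with miR-155 (0.55, SE 0.154, edgeR adjusted p 0.017), with no overlap, and MEF2A likewise (0.27, edgeR adjusted p 0.015). The HDAC4 difference was lost without miR-133a replicate 1 (adjusted p 0.055) or miR-155 replicate 2 (adjusted p 0.078), and that of MEF2A without either of these (0.055 and 0.062) or miR-133a replicate 3 (0.08).

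In all, 18 of the 100 tests in the 10 direct comparisons passed. The calls were 3 of 10 for miR-133a against miR-155 (16.7% of all genes), 2 against miR-302a (12.6%), 3 against miR-372 (14.1%) and 2 against miR-373 (12.6%). For miR-155 they were 3 against miR-302a (17.3%), 3 against miR-372 (18.8%) and 2 against miR-373 (18.1%). In 5 of the comparisons the same-numbered libraries deviated together, and with the replicate number as a block the calls in these rose from 12 to 16. The block added HDAC7, which was lower with miR-155 than with miR-133a (edgeR adjusted p 0.035 with the block, 0.11 without), miR-302a (0.023, 0.082) and miR-372 (0.028, 0.085), and MRTFA, higher with miR-155 than with miR-302a (0.036, 0.056). Without miR-155 replicate 2, MRTFA was higher with miR-155 than with each of the other 4 miRNAs (edgeR adjusted p 0.019 to 0.034), and without miR-373 replicate 2 it was higher than with miR-373 (0.038). HDAC7 was lower with miR-155 than with miR-302a without replicate 2 of the latter (0.033), and than with miR-372 likewise (0.045). Without miR-302a replicate 2, HDAC4 (0.033) and MEF2C (0.0045) were higher with miR-133a than with miR-302a, and without miR-373 replicate 2, MEF2C was higher with miR-155 than with miR-373 (0.024). With the length slope as a covariate 23 of the 100 tests passed. The 5 gained were MRTFA, higher with miR-155 than with miR-133a (edgeR adjusted p 0.015, against 0.1 without the slope), miR-302a (0.012, 0.056), miR-372 (0.026, 0.086) and miR-373 (0.0056, 0.05 after rounding), and MEF2C, higher with miR-155 than with miR-373 (0.033, 0.066).

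**Figure D3:**
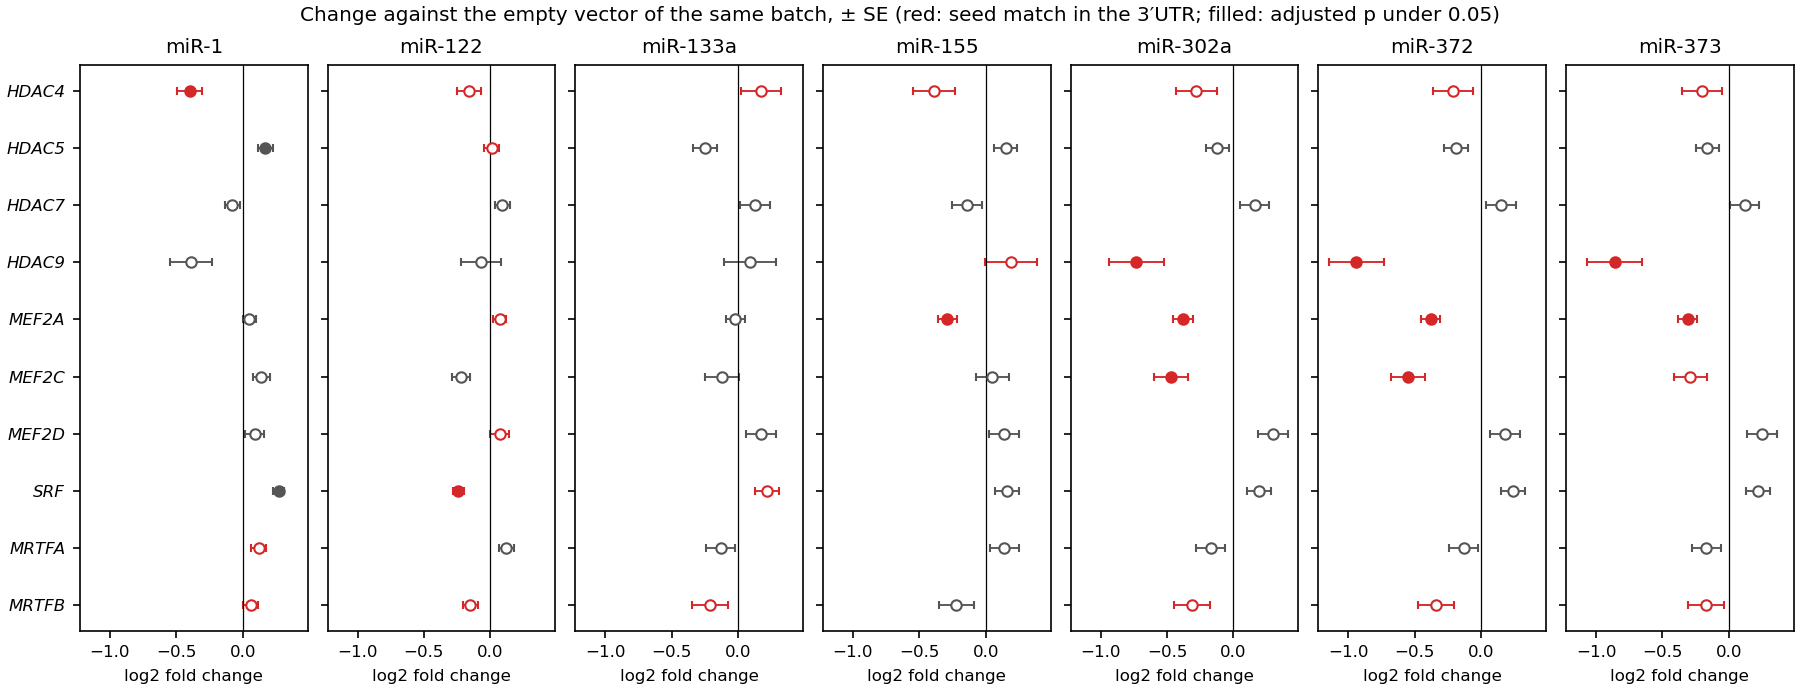
Log2 fold change ± SE of each gene (rows) against the empty vector of the same batch for the 7 miRNAs (panels), red where the longest 3′UTR held a seed match and filled where the edgeR adjusted p was under 0.05. The 11 filled points below 0 are red, and the 2 above 0, HDAC5 and SRF with miR-1, are grey.

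Set beside the seed matches, the 70 gene and miRNA pairs comprised 30 with a match in the longest 3′UTR and 40 without. Each of the 11 lower calls against the empty vector was in a pair with a match, and both higher calls, HDAC5 and SRF with miR-1, were in pairs without. The other 19 pairs with a match were not called. Pairs counted as without could still hold matches outside that 3′UTR. In the coding sequence these were HDAC7 and HDAC9 for miR-122, MRTFA for miR-133a and HDAC7 for the same-seed group. In the 5′UTR it was MEF2A for miR-1. HDAC9 also held a miR-122 match in another annotated 3′UTR. None of these pairs was called, and the part of such matches was not tested. The pairs were not independent, since the same-seed miRNAs share their matches and controls, and 8 of the 11 lower calls came from them. Over all genes tested, 26.4% of those with a miR-1 match were called lower, against 10.6% of those without. The same shares were 12.7% and 4.41% with miR-372, 9.93% and 3.03% with miR-302a, 6.98% and 1.93% with miR-373, 17.7% and 2.06% with miR-155, and 10.2% and 2.3% with miR-122. For miR-133a the shares were 14.2% and 2.05%, while none of the 3 genes with its match, HDAC4, SRF and MRTFB, was called. Their matches were all 7mer-A1, as were those of SRF to miR-122 and of MEF2A to the shared seed, which were called lower. The part of the match type was not tested.

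The other genes of these pathways were counted from lists. Of 7 other HDAC and MEF2 genes tested, HDAC8 was lower (-0.23) and HDAC1 higher (0.17) with miR-1. That share of 28.6% was near the background of 24.5%. None was called with any other miRNA in edgeR against the empty vector. Of 22 partners and kinases of class IIa HDACs, miR-1 called 6: the kinase gene CAMK1D (-0.48, SE 0.0547, edgeR adjusted p 2.7e-06) and the CaMKII inhibitor CAMK2N1 (-0.26) were lower, and 4 were higher, with SIK1, which encodes a salt-inducible kinase, at 0.27. The median of the list was 0.01 with miR-1, and its called share of 27.3% was near the background of 24.5%. SIK1 was also higher with the same-seed miRNAs (0.50 with miR-302a, 0.48 with miR-372, 0.39 with miR-373), and the protein kinase D gene PRKD1 was lower with miR-372 (-0.30), miR-302a (-0.36) and miR-155 (-0.41). CAMK1 was higher with miR-155 (0.47) and miR-133a (0.37), and with miR-133a the corepressor gene TBL1X was lower (-0.77). With the 6 miRNAs other than miR-1, between 1 and 3 of the 22 were called, or 4.55% to 13.6%, against 5.13% to 11.4% of all genes.

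Of 19 tested partners of SRF and genes of RhoA and actin signalling, at most 4 passed for any 1 miRNA. The share was 21.1% with miR-372, against 11.4% of all genes, and 15.8% with miR-1, against 24.5%. The small GTPase gene RHOB was higher with miR-1 (0.36) and miR-122 (0.33). ELK3, a ternary complex factor that partners SRF, was lower with miR-155 (20.8 ± 1.12 against 38.7 ± 3.8 CPM, log2 fold change -0.89, SE 0.0966, edgeR adjusted p 7.2e-06), miR-302a (-0.39) and miR-372 (-0.40). The homeobox factor NKX2-5 was higher with miR-133a (0.42), miR-302a (0.48) and miR-372 (0.47).

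Cytoskeletal target genes of MRTF and SRF changed with both muscle miRNAs. With miR-133a, in whose cells no member was called, 7 of 24 tested target genes were lower and none higher (29.2%, against 5.34% of all genes, with a median log2 fold change of -0.14 against 0). The lowest were the calponin gene CNN2, at 16.7 ± 0.947 CPM (SD, n = 3) against 55.9 ± 2.71 CPM (log2 fold change -1.74, SE 0.0895, edgeR adjusted p 2.1e-10), and the caldesmon gene CALD1 (-1.34, SE 0.0742). With miR-1, 6 of 23 were lower and 9 higher (65.2%, against 24.5%, median 0.15). TGFB1I1, which encodes a focal adhesion protein, was the lowest at 3.42 ± 0.617 CPM (n = 2) against 7.46 ± 0.728 CPM (-1.12, SE 0.153, edgeR adjusted p 2.5e-05), and the leiomodin gene LMOD1 was raised by 0.57. Seed matches in these target genes are not given, and the part of such matches in their changes was not tested.

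Of 23 target genes tested in both batches, 4 were lower with both miRNAs: CALD1, ACTA2, TPM1 and TPM4. CNN2 and the non-muscle myosin gene MYH9 were lower with miR-133a and higher with miR-1, at 0.48 and 0.27, and were picked out after their values were seen. Their difference between the miRNAs in the joint fit is not given here. With miR-122 the counts lower and higher were 1 and 0 (4.35% of the list tested, against 5.92% of all genes). They were 0 and 3 with miR-155 (12.5%, against 7.63%) and 0 and 2 with miR-302a (8.33%, against 7.88%). With miR-372 they were 3 and 3 (25%, against 11.4%), and with miR-373 1 and 2 (12.5%, against 5.13%). CNN2 was higher with miR-372 (0.64), miR-373 (0.56) and miR-302a (0.52).

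**Figure D4:**
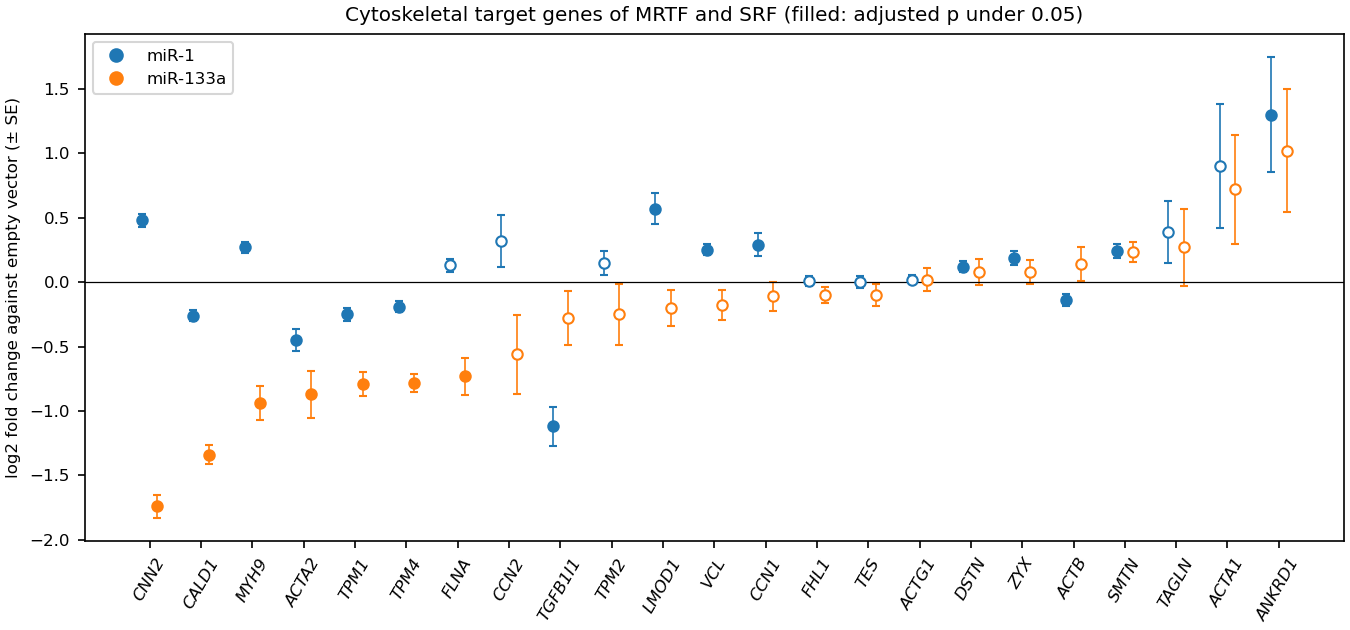
Log2 fold change ± SE (vertical axis) of the 23 cytoskeletal target genes tested in both batches, ordered by the miR-133a value, for miR-1 (blue) and miR-133a (orange), filled where the edgeR adjusted p was under 0.05. The filled orange points all lie below 0, while the filled blue points lie on both sides.

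Of 10 MEF2 target genes tested, 5 were higher and none lower with miR-372 (50%, against 11.4% of all genes, median 0.25), in cells where MEF2A and MEF2C were lower. The count was 3 with the length slope as a covariate or when each library had to exceed 1 CPM. SLC2A4, the insulin-responsive glucose transporter, was at 4.29 ± 1.47 CPM against 2.16 ± 0.287 CPM (log2 fold change 1.03, SE 0.291, edgeR adjusted p 0.028), and the synaptic immediate-early gene ARC was higher by 0.71 (edgeR adjusted p 0.046). With miR-302a 3 were higher (30%, against 7.88% of all genes), SLC2A4 (1.02), ARC (0.77) and the desmin gene DES. With miR-373 the single call was DES (10%, against 5.13%). DES, named after its values were seen, was low in these cells, at 1.31 CPM with miR-372 against 0.234 CPM. It is also on the list of 11 skeletal muscle markers, whose summed level was 41.3 to 45.2 CPM with miR-372, 33.5 to 46.4 with miR-302a and 37.1 to 45.1 with miR-373, against 30.5 to 34.2 CPM with the empty vector, mostly from TNNT1 and with MYF5 at 0. The sum was also 37.1 to 41.4 CPM with miR-155, where no MEF2 target gene was called by edgeR. The part of these markers in the counts was not tested. With miR-1, 3 of 10 were higher, with ARC at 0.86 (SE 0.107, edgeR adjusted p 9.2e-06), and 2 lower, with KLF4 at -0.47. This was 50%, against 24.5% of all genes, but DESeq2 called 1. The immediate-early targets of SRF passed in at most 2 of 10 for any 1 miRNA, with JUNB higher for miR-1 (0.23) and miR-122 (0.27). For these miRNAs the share was 20% each, against 24.5% and 5.92% of all genes.

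As a description over the 18 libraries of batch 2, which fall into groups by miRNA and differ in depth, the log2 CPM of SRF ran most closely with SLC25A22 (Pearson r = 0.913), NACC1 (0.909) and USB1 (0.878) among 12299 genes. HDAC4 ran with ZNF282 (0.907), PRIMA1 (0.892) and KDM4B (0.884), and MEF2C with LRRC8C (0.949), KIF11 (0.948) and FIGNL1 (0.948). Among the 10 genes themselves, the closest pairs were HDAC5 with MRTFA (0.79) and HDAC4 with MEF2A (0.72).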

How the data were processed

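RNA-seq libraries of polyadenylated RNA were made from 1000 ng of RNA. After clipping adapters, the authors mapped reads to hg19 with TopHat2 2.1.1 and assigned them to exons on their own strand with featureCounts, above a mapping quality limit. The deposited values are raw counts per gene, in a table per batch. Feature lengths in bases, deposited by the authors beside the counts, gave the CPM per kilobase and the length slopes. The deposited tables of the authors' own fold changes were not used. Groups and replicate numbers came from the labels.

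The 10 genes, the pathway lists and the alternatives were chosen with earlier results of these data known. Of 29794 genes, 28543 matched a symbol. Counts were fitted per batch with edgeR 4.0.16 in R 4.3.3 (filterByExpr with a minimum count of 10, TMM, quasi-likelihood test, group as the factor, Benjamini-Hochberg adjustment over all genes tested, threshold 0.05, default prior count). Libraries held 13047400 to 35040778 counts. In simulated data, log2 changes of 0.5 were called in 74.7% of 99 genes in the miR-1 comparison (14228 genes) and 52.5% of 99 in the miR-133a comparison (13952 genes). The changed genes were drawn from all levels and were fewer than those called in the data, so these rates are not those of the 10 genes. P-values measure the spread between separately transduced cultures, 2 or 3 a group. Any 2 replicates differed by more than sampling noise (chi-square per degree of freedom 1.83 to 35.7), and each was counted.

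The genes named were the 10 members, and per list and comparison at most the 2 lowest and 2 highest called genes with mean log2 CPM of at least 1 and no overlap between groups, with the 3 genes of highest Pearson correlation to HDAC4, MEF2C and SRF. Same-numbered libraries were taken as paired where every correlation of their deviations from the group means was over 0.1. This held for miR-133a with miR-155 (0.183 to 0.345) and with miR-372 (0.137 to 0.3), miR-155 with miR-302a (0.112 to 0.202) and with miR-372 (0.273 to 0.614), and miR-302a with miR-372 (0.161 to 0.336), and for no comparison with the empty vector. Alternatives were DESeq2 (1.42.0) size factors or its Wald test, the likelihood ratio test, no filter or more than 1 CPM in every library, only the groups compared, the replicate block, a prior count of 2, all annotated 3′UTRs, and leaving out each library. A length slope covariate for batch 2 and a crossed replicate block for batch 1 were chosen after seeing the data.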

Additional observations from a re-analysis of the deposited data

Results flagged for a closer look

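SRF was picked out because its changes with miR-1 and miR-122, which share the empty vector libraries of batch 1, passed the test in opposite directions, and the direct difference of 0.51 on the log2 scale (SE 0.0439, edgeR adjusted p 3.5e-08) passed as well. It was 127 and 128 CPM in the miR-1 libraries and 90.2 and 88.6 CPM in the miR-122 libraries. No group held 4 or more libraries, so single libraries were not tested as outliers.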

How the results depend on the processing

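No comparison with the empty vector was paired, and the replicate block left the number of the 10 genes called within 1.5 times the reported one in all but 2 cases. It gave 5 calls in place of 3 for the averaged same-seed groups, adding MEF2D and SRF. It gave 1 in place of 0, HDAC5, for the difference between the miR-1 and miR-133a effects. For miR-372 the block gave 4 calls in place of 3, adding SRF. In batch 1 same-numbered libraries did not deviate together (correlations -0.0391, -0.0315 and -0.0112), and a crossed replicate block gave 3 calls for miR-122. DESeq2 gave 3 calls between miR-1 and miR-122 in place of 5, and 1 for the difference between the miR-1 and miR-133a effects, as did the likelihood ratio test and a fit restricted to the compared groups. The likelihood ratio test gave 2 for miR-122. Without a filter miR-155 had 0 calls and miR-373 had 1. The restricted fit gave 0 calls for miR-155, 1 for miR-302a and 1 for miR-133a. The length slope covariate gave 0 calls for miR-155 and 5 for the averaged groups, adding MEF2D and SRF.

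With 1 library left out, the calls ranged from 2 to 4 for miR-1, 0 to 2 for miR-122, 2 to 4 between these, 0 to 1 for the difference between the miR-1 and miR-133a effects, 0 to 2 for miR-155 and 0 to 1 for miR-133a. Among the same-seed groups they ranged from 0 to 1 for miR-373, 2 to 4 for miR-372, 1 to 2 for miR-302a and 2 to 5 for the average. Over the direct comparisons in batch 2 they ranged from 14 to 23, and were 27 with the block.

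Directions reversed only for genes not called. The length slope turned MEF2A with miR-133a to 0.039, MRTFB with miR-155 to 0.10 and MRTFA with miR-372 to 0.011. Leaving out 1 library gave ranges across 0 for MRTFB with miR-1 (-0.005 to 0.133), for HDAC5 (-0.02 to 0.053) and MEF2D (-0.004 to 0.139) with miR-122, for HDAC9 (-0.014 to 0.231) and MEF2A (-0.056 to 0.017) with miR-133a, and for MEF2C with miR-155 (-0.006 to 0.101). The cause of these changes was not tested. Of the other gene values, 946 changed neither direction nor call, 35 lost a call and 18 gained one. Of the list counts, 77 moved by more than 1.5 times: cytoskeletal targets with miR-302a had 4 to 7 calls in place of 2, and MEF2 targets 3 with miR-372 under the length slope or a filter of more than 1 CPM, and 1 with miR-1 under DESeq2.

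The 2 or 3 libraries a group and the low counts of HDAC9 set the precision of the calls, and protein was not analysed here.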
